A study of Mus musculus with 15 samples.

Results

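Apart from *Pbrm1*, several other genes are recurrently mutated in human renal cell carcinoma, and 9 of their mouse counterparts were examined here in Renca tumors with and without *Pbrm1*. These were *Vhl*, *Setd2*, *Bap1*, *Kdm5c*, *Kdm6a*, *Tsc1*, *Tsc2*, *Mtor* and *Nf2*, chosen by symbol, with earlier results of these data known. All 9 were found among the 18279 genes of the table and tested, and all 9 had a mean of at least 10. Renca is a renal adenocarcinoma line of the BALB/c mouse. Cells were injected in Matrigel under the skin of the back of female BALB/c mice aged 4 to 6 weeks, and RNA of whole tumors was sequenced. The control group holds 5 tumors that the labels call parental Renca, whereas the study's text describes control knockout cells carrying a control CRISPR/Cas9 plasmid. The other groups hold 5 tumors each of *Pbrm1* KO #4 (clone 4) and *Pbrm1* KO #18 (clone 18), made with a *Pbrm1* CRISPR/Cas9 plasmid and a repair plasmid that carries puromycin resistance and a red fluorescent protein. Each knockout line is 1 sorted clone, so an effect of the edit and a trait of the clone cannot be told apart within a line. The tests below take tumors as replicates, so their p values measure spread between tumors and not between cell lines. The mice of the experiment were left untreated or given PD-1 antibody, and the labels do not say which applied to these 15 tumors.

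The genes act at different points of the cell. *Vhl* encodes the substrate receptor of a ubiquitin ligase that marks the alpha subunits of hypoxia-inducible factors (HIF) for degradation when oxygen is present, and its loss is the founding event of most clear cell renal carcinomas. *Setd2*, *Bap1*, *Kdm5c* and *Kdm6a* encode enzymes that write or erase histone marks, as *Pbrm1* encodes a chromatin remodeler subunit. *Tsc1*, *Tsc2* and *Mtor* belong to the growth pathway that senses nutrients, and *Nf2* encodes merlin, which restrains the transcriptional coactivators YAP and TAZ through the Hippo kinases.

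The edited gene was read first. *Pbrm1* had normalized counts of 9704.2, 9870.6, 8959.7, 7451.5 and 9075 in the control tumors, 2685.6, 2709.1, 2807, 2483.8 and 3067.8 in clone 4, and 2724.7, 3137.5, 2572.1, 2865.7 and 2891.7 in clone 18. All 10 knockout tumors lay below every control tumor, and the log2 difference was -1.69 ± 0.07 (SE, adjusted p from limma 2.94e-11). The reads left over were counted over the whole gene, and RNA of host cells and edited RNA cannot be told apart in them. On the opposite strand *Pbrm1* shares sequence with *Gnl3* and *Smim4*. Whether the count used strand is not given in the sources used here.

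The tumors held 32924414 to 49099168 reads on genes. The renal epithelial markers (*Pax2*, *Pax8*, *Cdh16*, *Lrp2*, *Krt8*, *Krt18* and *Epcam*) were measured 7 of 7, with a summed normalized count of 108220 to 129530 in the control tumors and 91218 to 121140 in the knockout tumors, and 1 of them rose and 1 fell. Macrophage markers summed to 64392 to 83061 in the control and 46726 to 63260 in the knockout tumors, so the groups did not overlap, and 3 of 5 fell (*Csf1r*, *Mrc1* and *C1qa*). In clone 4, 1 of 5 fell (*Csf1r*), whereas in clone 18, 4 of 5 fell and *Cd68* rose, with 13739.3 to 18219.1 normalized counts beside 10674.4 to 14233.8 in control (log2 difference 0.38 ± 0.11, SE, adjusted p from limma 0.018). *Cd68* was also higher in clone 18 than in clone 4, by 0.52 ± 0.11 (SE, adjusted p from limma 0.00998). Markers also fell in 2 of 6 for T cells, 1 of 4 for neutrophils and 1 of 3 for B cells. Of all genes, 22.1% were called between knockout and control, 16.8% in clone 4 and 24.7% in clone 18. Endothelial, fibroblast, skeletal muscle, red cell and proliferation markers passed in 0 of 5 each and adipocyte markers in 0 of 4, and the keratinocyte sum was at most 18. Skeletal muscle markers summed to 555.3 or more in clone 4 tumors 9 and 10 and clone 18 tumors 11, 14 and 15 and to 154.4 or less in every other tumor. Values came from whole tumors, so fewer cells of a type and less RNA per cell cannot be told apart.

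Between 5 control and 10 knockout tumors, 1 of 9 genes changed. *Nf2* fell, and *Vhl*, *Setd2*, *Bap1*, *Kdm5c*, *Kdm6a*, *Tsc1*, *Tsc2* and *Mtor* did not pass the test (limma on log2 of the normalized count plus 1, adjusted over all 18250 tested genes, threshold 0.05). Over all genes, 22.1% were called in this comparison and 12.9% were called as lower, so 1 of 9 is not a high share. Of the 9 genes, 5 had a log2 difference above 0 and 4 below, with a median of 0.01 beside -0.02 for all genes. The 8 genes that were not called had log2 differences of at most 0.23 in size, and their 95% confidence intervals together ran from -0.25 to 0.44. Against the same control tumors, 1 of 9 passed in clone 4, where 16.8% of all genes did, and 1 of 9 in clone 18, where 24.7% did. In each it was *Nf2*. Between the clones 0 of 9 passed with limma, edgeR or DESeq2, 1 of 9 had an unadjusted p under 0.05, and 4.62% of all genes were called. Both clone comparisons share the control tumors and are not independent of each other.

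**Figure D1:**
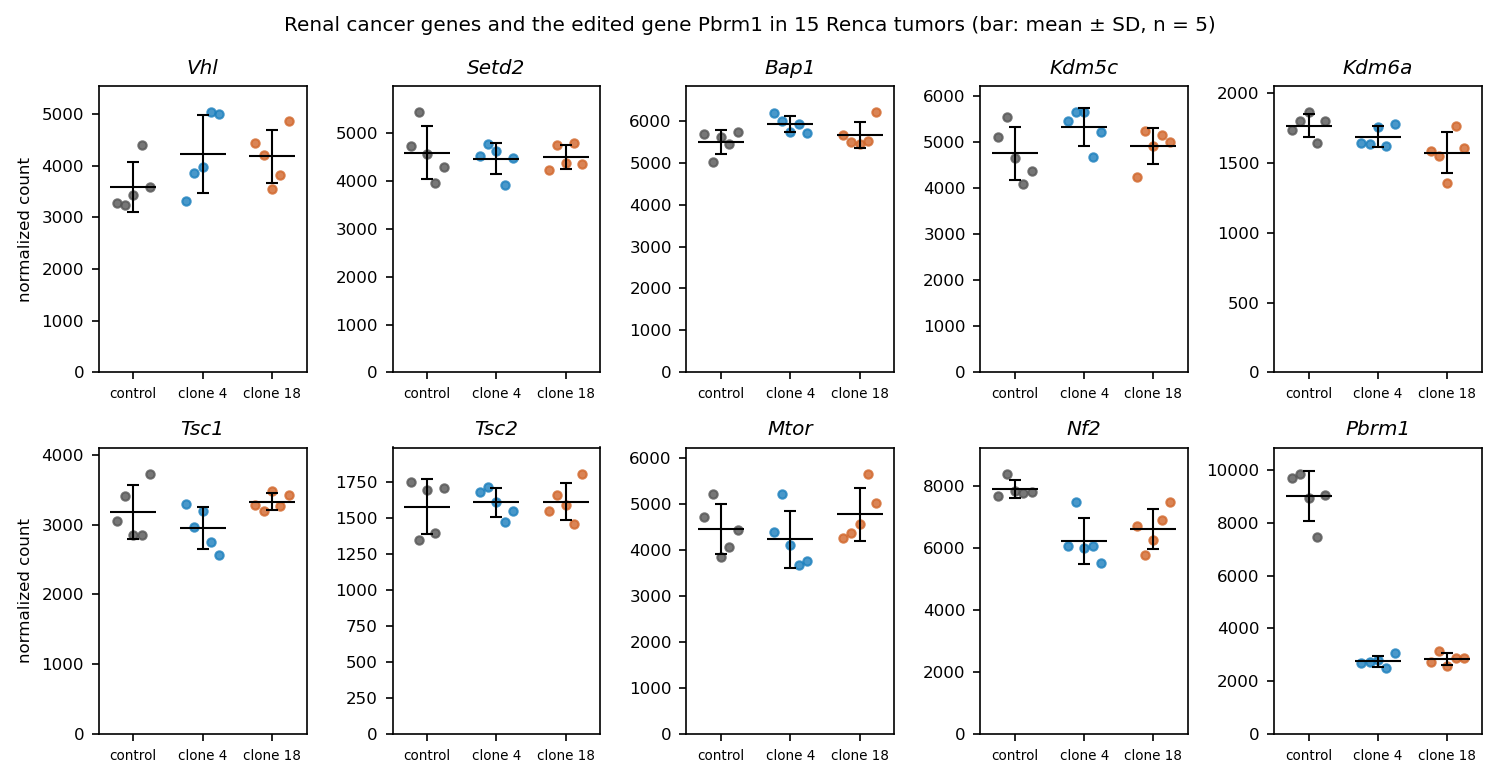
Normalized counts of the 9 renal cancer genes and of *Pbrm1* in each tumor, with 5 points per group (control, knockout clone 4, knockout clone 18) in tumor order, a bar for the mean and whiskers for 1 SD. The vertical axes start at 0 and differ between panels. Besides *Pbrm1*, *Nf2* is the panel in which all 10 knockout tumors (5498.5 to 7486) sit below the 5 control tumors (7662.9 to 8399.7).

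**Figure D2:**
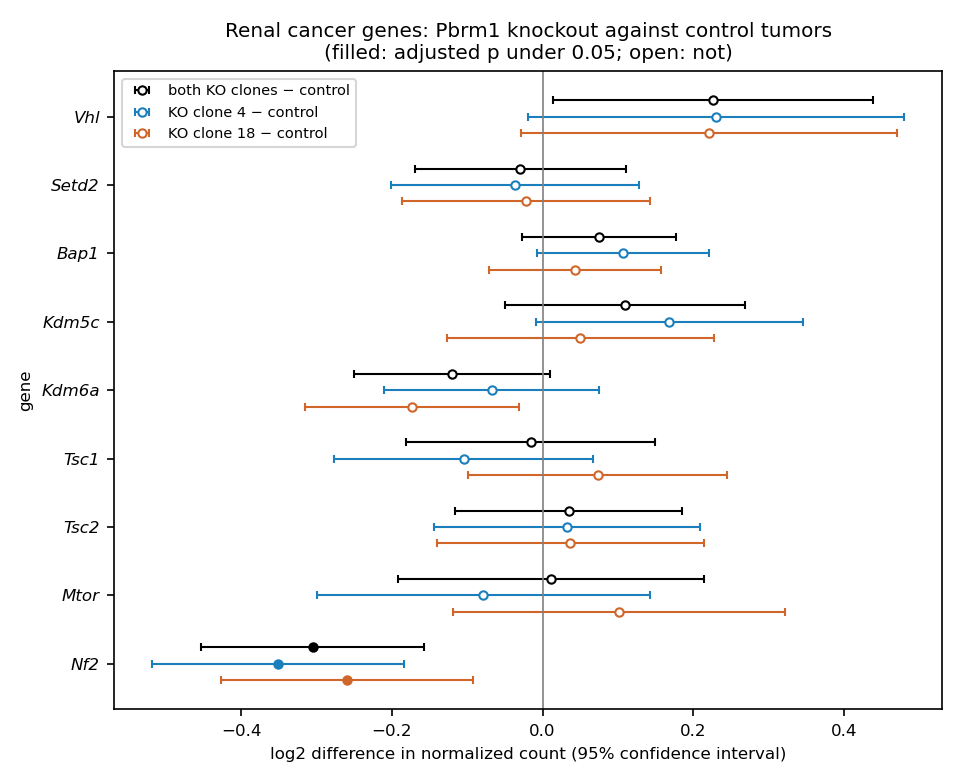
Log2 difference in normalized count of each of the 9 genes between knockout and control tumors, for both clones together and for each clone, with 95% confidence intervals. Filled points have an adjusted p under 0.05. *Nf2* is filled in all 3 comparisons, with -0.31, -0.35 and -0.26, and the intervals of *Setd2*, *Bap1*, *Kdm5c*, *Tsc1*, *Tsc2* and *Mtor* include 0 in all of them.

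*Nf2* (chr11:4765845-4849536, minus strand, GRCm38) encodes merlin, a protein at the cell cortex that activates the Hippo kinases. Its normalized counts were 7662.9, 8399.7, 7822.8, 7785.4 and 7793.5 in the control tumors. In clone 4 they were 6070.4, 7486, 5983, 6054.2 and 5498.5, and in clone 18 they were 6697.5, 5768.1, 6241.2, 6904.2 and 7472.8. Each knockout tumor was lower than the lowest control tumor, and control tumor 2 and clone 4 tumor 7 were the high ones of their groups. Of all genes, 4.87% separated the groups this way in the same direction and 3.11% in the other. The mean ± SD over 5 tumors was 7893 ± 290 in control, 6218 ± 747 in clone 4 and 6617 ± 649 in clone 18, and the mean of all knockout tumors came to 81.3% of that in control.

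The log2 difference of *Nf2* between knockout and control was -0.31 ± 0.07 (SE), with a 95% confidence interval of -0.45 to -0.16 and an adjusted p from limma of 0.00471. The two-sided exact permutation test over the 3003 splits of the 15 tumors gave p = 0.00167, where the smallest p it can give is 0.000333. By clone, the differences were -0.35 ± 0.08 (SE, adjusted p from limma 0.00532) and -0.26 ± 0.08 (SE, adjusted p from limma 0.0241). The call for clone 18 did not hold under 6 of 25 alternatives, among them edgeR and quantile normalization, over which its adjusted p ran from 0.00879 to 0.0662. The clones themselves differed in *Nf2* by 0.09 ± 0.08 (SE), with an interval of -0.08 to 0.26. The macrophage marker sum also separated control from knockout tumors and was lower in the knockout tumors, as *Nf2* was. Within groups its correlation with *Nf2* was negative in sign and did not pass (r = -0.471 and rho = -0.511 over 15 tumors, permutation p = 0.105 and 0.0672, 0.53 and 0.451 after adjustment over 12 marker lists). Without tumors 1 and 12 its r was -0.308. The part of these cells in the difference between groups was not tested. Of the 12 lists 0 passed, and the B cell sum had the r largest in size (0.603, permutation p = 0.0427, 0.512 after adjustment).

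For orientation, the 250 bases upstream of the main *Nf2* start are shown, as the promoter of the gene that changed. They lie at chr11:4849545-4849794 on the minus strand (RefSeq, GRCm38.p6), hold 59.2% G and C and 20 CpG, and are written 5′ to 3′, with the match to the SP1 motif GGGCGG, here read on the other strand, in capitals.
Nf2 promoter: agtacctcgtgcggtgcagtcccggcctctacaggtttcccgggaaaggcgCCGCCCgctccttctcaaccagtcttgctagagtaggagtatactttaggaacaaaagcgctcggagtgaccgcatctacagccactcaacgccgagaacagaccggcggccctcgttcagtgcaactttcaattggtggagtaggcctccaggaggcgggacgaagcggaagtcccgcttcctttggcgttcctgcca
Promoter windows of 300 bases (250 before and 50 after the start) were found in RefSeq for 9 of 9 genes. The window at the main start of each gene held 47% to 77.3% G and C and 13 to 50 CpG, beside medians of 52.7% and 7 over 32851 windows of the table. Searched on both strands, GGGCGG was in 6 of the 10 windows of these genes (*Nf2* has a second start) and in 35.7% of all windows. ACGTG, the core of the hypoxia response element, was in 2 of 10 (*Bap1* and *Kdm6a*) and in 19.6% of all. The ETS motif CCGGAAG was in 2 of 10 (*Tsc2* and *Mtor*) and in 8.86% of all, and TGCGCA, a part of the NRF1 site, was in 0 of 10 and in 7.76% of all. These matches describe the letters only.

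The Hippo pathway had 14 other measured genes, from the kinases *Stk3*, *Stk4*, *Lats1* and *Lats2* to the TEAD factors. Where 22.1% of all genes were called, 1 of these fell between control and knockout and 0 rose. The count was 2 under 9 of 25 alternatives, among them upper quartile scaling and the omission of control tumor 5, of clone 4 tumors 7, 8 or 10 or of clone 18 tumor 12, when *Stk3*, *Stk4* or *Lats2* passed as well. The gene called in the main analysis was *Wwtr1*, which encodes TAZ, one of the coactivators that the pathway restrains. *Wwtr1* had normalized counts of 7201.6 to 7649.4 in control, 6293.1 to 6782.1 in clone 4 and 5471.5 to 6326.4 in clone 18. Every knockout tumor lay below every control tumor, as in 4.87% of all genes, while the clones overlapped. *Wwtr1* had a log2 difference of -0.25 ± 0.05 (SE, adjusted p from limma 0.00171). The median over all 15 genes of the list was -0.12 beside -0.02 for all genes. By clone, 3 of the 14 passed in clone 4 (*Wwtr1* lower, *Stk4* and *Tead4* higher) and 4 in clone 18 (*Wwtr1*, *Lats1*, *Lats2* and *Mob1b*, all lower), named here after their values were seen. Of all genes, 16.8% passed in clone 4 and 24.7% in clone 18. *Tead4*, a DNA-binding partner of YAP and TAZ, was higher in clone 4 (1066.1 to 1277.6) than in control (752 to 948.6) and clone 18 (755.5 to 984.1). The test between the clones gave *Tead4* a log2 difference of -0.43 ± 0.09 (SE, clone 18 minus clone 4, adjusted p from limma 0.00922).

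Of 8 genes known as targets of YAP and TAZ, 2 fell between control and knockout, 0 rose and 6 did not pass. The share called over all genes was 22.1%. *Amotl2*, which encodes an angiomotin that binds YAP, had 3858.6 to 4220.8 normalized counts in control, 2265.3 to 3091.2 in clone 4 and 2345.7 to 3106.7 in clone 18. Every knockout tumor lay below every control tumor, as in 4.87% of all genes, while the clones overlapped. The log2 difference of *Amotl2* between knockout and control was -0.63 ± 0.08 (SE, adjusted p from limma 2.72e-05). *Axl*, a receptor tyrosine kinase, differed by -0.34 ± 0.08 (SE, adjusted p from limma 0.00772), with 9974.9 to 12441 in control and 7322.1 to 9355 in clone 18. In clone 4 its values (8807.2 to 11110) overlapped those of the control tumors. *Crim1* and *Tgfb2* were lower in clone 18 than in clone 4 by log2 differences of -0.38 and -1.20 and were not called for both clones together. By clone, 1 of 8 passed in clone 4 (*Amotl2*), with a median of -0.03 over the 8 targets beside -0.01 for all genes. In clone 18, 4 of 8 passed (*Amotl2*, *Axl*, *Crim1* and *Tgfb2*), all lower, with a median of -0.34 beside -0.02. Of all genes, 16.8% were called in clone 4 and 24.7% in clone 18. For both clones together the median of the 8 targets was -0.27.

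**Figure D3:**
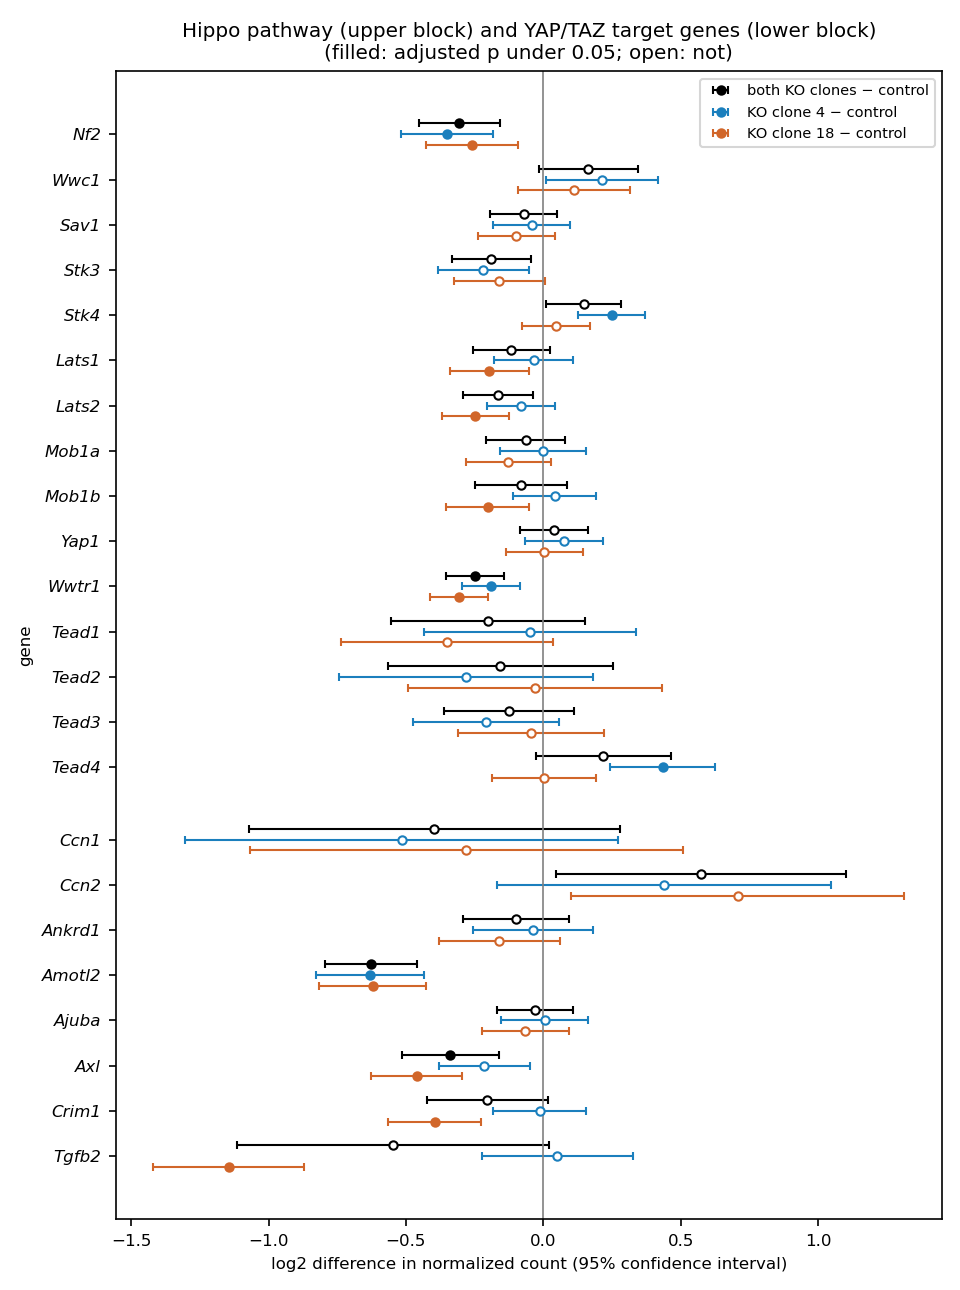
Log2 difference in normalized count, with 95% confidence intervals, of the 15 measured Hippo pathway genes (upper block) and 8 YAP/TAZ target genes (lower block), for both knockout clones together and for each clone against control. Filled points have an adjusted p under 0.05. *Nf2*, *Wwtr1* and *Amotl2* are filled to the left of 0 in all 3 comparisons, and *Tead4* to the right of 0 in clone 4.

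Of the genes that most resembled *Nf2* from tumor to tumor after each group's mean was taken out, *Fam83h* (Pearson r = 0.937) and *Slc20a2*, a phosphate transporter gene (r = 0.935), came first among 12155 genes with a mean of at least 100, over 15 tumors. Spearman's rho with *Nf2* was 0.839 for *Fam83h* and 0.804 for *Slc20a2*. The points share library and depth with *Nf2*, and tumors 2 and 7 were high in all 3 genes for their groups. *Fam83h* had a log2 difference of -0.42 ± 0.10 (SE, adjusted p from limma 0.0083) between knockout and control. *Slc20a2* had one of -0.45 ± 0.10 (SE, adjusted p from limma 0.00463). In both genes 9 of 10 knockout tumors lay below every control tumor. By clone, *Fam83h* did not pass in clone 18 (-0.30 ± 0.11, SE, adjusted p from limma 0.0533), while *Slc20a2* passed in both clones.

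*Vhl* (chr6:113623959-113631633, plus strand) had the largest positive difference of the 9 genes, but it did not pass after adjustment over all genes. Its normalized counts were 3272.6, 3238.5, 3432, 4407 and 3584.3 in control, 3312.4, 3855.8, 3972.8, 5039.3 and 4993.9 in clone 4, and 4447.3, 4215.3, 3546, 3819 and 4871 in clone 18. Control tumor 4 stood among the knockout values, and 4 of 10 knockout tumors exceeded every control tumor. The log2 difference was 0.23 ± 0.10 (SE, interval 0.01 to 0.44, adjusted p from limma 0.122), and the exact permutation test gave p = 0.0646. Without control tumor 4 it was 0.30 with an adjusted p of 0.0466 in limma, so 1 library decided the call.

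Among the partners of *Vhl* in the ubiquitin ligase, 2 were lower in the knockout tumors. *Cul2*, the scaffold of the ligase, fell by 0.25 on the log2 scale (SE 0.07, adjusted p from limma 0.025), with 2823.5 to 3233.2 in control, 2520.8 to 2927.5 in clone 4 and 1953 to 2685.7 in clone 18, and its call was lost under 3 of 25 alternatives. *Rbx1*, its RING subunit, fell by 0.20 (SE 0.06, adjusted p from limma 0.0345), a call lost under 8 of 25 alternatives. The elongins that join *Vhl* to the scaffold gave -0.07 ± 0.07 for *Elob* and -0.01 ± 0.07 for *Eloc* (SE, adjusted p from limma 0.508 and 0.912), and the value for *Eloc* turned sign under other scalings. *Cul2* and *Rbx1* were 2 of the 11 other measured genes of the ligase and the oxygen sensors that were called, both lower. The rest of this list, with the HIF subunits and the prolyl hydroxylases *Egln1*, *Egln2* and *Egln3*, did not pass, where 22.1% of all genes did. Leaving out 1 tumor gave 0 to 3 called genes here, with 0 without control tumor 2, 1 without control tumors 4 or 5 or clone 18 tumor 14, and 3 without clone 4 tumor 6.

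Of 12 genes known as HIF targets, 2 rose, 1 fell and 9 did not pass. Their median was 0.05, and 22.1% of all genes were called. *Ankrd37* rose by 1.40 ± 0.30 on the log2 scale (SE, adjusted p from limma 0.0029), from 210.1 to 728.3 in control to 427.2 to 1316.7 in clone 4 and 900.6 to 1354.2 in clone 18. *P4ha1*, a collagen prolyl hydroxylase gene, rose by 0.38 ± 0.10 (SE, adjusted p from limma 0.0142). *Ndrg1* went the other way, with -0.48 ± 0.15 (SE, adjusted p from limma 0.0273), and was lost under 3 of 25 alternatives.

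*Setd2* (chr9:110532597-110618633, plus strand), the histone methyltransferase that trimethylates H3K36 over transcribed genes, had 4730.3, 5447.4, 4579.1, 3955.5 and 4287.4 normalized counts in control. In clone 4 it had 4517.8, 4768.3, 4642.2, 3928.8 and 4489.3, and in clone 18 it had 4224.9, 4757.9, 4382.4, 4808.3 and 4370.6. The groups overlapped over most of their ranges. The log2 difference was -0.03 ± 0.07 (SE, interval -0.17 to 0.11, adjusted p from limma 0.807), and it turned to a value just above 0 under other scalings. *Gm42763* overlaps *Setd2* on the same strand. Of the 9 other genes that write or erase H3K36 methylation, 1 rose: *Nsd3*, a methyltransferase gene listed as *Whsc1l1*, by 0.25 ± 0.07 (SE, adjusted p from limma 0.0135). Without clone 4 tumor 7, 2 of these genes were called. The share called over all genes in the main analysis was 22.1%.

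*Bap1* (chr14:31251450-31259944, plus strand) encodes a deubiquitinase that removes ubiquitin from histone H2A. It had 5691.2, 5017.6, 5611.2, 5434.5 and 5723.3 normalized counts in control, 6189, 5991.5, 5739.3, 5926.7 and 5714.6 in clone 4, and 5667.9, 5502.3, 5432.2, 5511 and 6204.4 in clone 18. Although 5 of 10 knockout tumors exceeded every control tumor, the difference was small, at 0.07 ± 0.05 on the log2 scale (SE, interval -0.03 to 0.18, adjusted p from limma 0.299). The exact permutation test gave p = 0.0842. The spread of *Bap1* within groups was the smallest of the 9 genes, with a pooled SD of 0.07 on the log2 scale, and of 16494 genes whose mean reached 10 or more, 1.39% had a smaller one.

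Among 9 other measured genes of the complexes of BAP1, 3 rose, 1 fell and 5 did not pass. The list had a median of 0.06, and 22.1% of all genes were called. *Foxk2*, a forkhead factor that brings BAP1 to DNA, had 3986.3 to 4240.9 in control against 4301 to 5131.6 in clone 4 and 4594.8 to 5736.1 in clone 18. Every knockout tumor lay above every control tumor, as in 3.11% of all genes, while the clones overlapped. *Foxk2* had a log2 difference of 0.25 ± 0.06 (SE, adjusted p from limma 0.00651). Its paralog *Foxk1* moved in the opposite direction, with -0.47 ± 0.11 (SE, adjusted p from limma 0.00726) and 1138.7 to 1598.6 in control against 739.9 to 996.3 in clone 18. *Kdm1b*, a histone demethylase gene, rose by 0.29 ± 0.07 (SE, adjusted p from limma 0.00612), and *Mbd5* by 0.21 ± 0.06 (SE, adjusted p from limma 0.0233). The call for *Mbd5* was lost under 2 of 25 alternatives.

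In the mouse, as in humans, *Bap1* lies close to *Pbrm1*, here 129858 bases from it on chromosome 14, so the genes around the edited one were read too. Within 500 kb of either end of *Pbrm1*, 9 of 32 other genes were called (28.1%, beside 22.1% of all genes), 7 lower and 2 higher, and *Bap1* was not among them. The largest difference was in *Mustn1*, a gene of musculoskeletal tissue 137.528 kb away, with 732.7 to 1110.6 normalized counts in control, 27.9 to 69.4 in clone 4 and 42.5 to 52.4 in clone 18. Its log2 difference was -4.28 ± 0.20 (SE, adjusted p from limma 1.98e-10). The skeletal muscle marker sum was 73.2 to 154.4 in the control and 51.8 to 1528.7 in the knockout tumors.

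*Itih4*, a neighbour of *Mustn1*, had 71.9 to 152.4 in control against 8.7 to 24.9 in clone 4 and 6 to 31.3 in clone 18, a log2 difference of -2.75 ± 0.36 (SE, adjusted p from limma 4.14e-05). *Stab1*, a scavenger receptor gene of macrophages and sinusoidal endothelium, differed by -0.53 ± 0.12 (SE, adjusted p from limma 0.00492), beside the lower macrophage marker sum. *Tnnc1* (-0.63), *Colq* (-1.20), *Sfmbt1* (-0.28) and *Mettl6* (-0.30) were also lower on the log2 scale, and *Sema3g* (0.69) and *Phf7* (0.32) higher, and the call was lost under 10 of 25 alternatives for *Colq*, 3 for *Sfmbt1* and 1 for *Phf7*. *Gnl3* and *Smim4*, which overlap *Pbrm1*, differed by -0.00 and 0.02. *Phf7*, whose start lies next to that of *Bap1* on the opposite strand, was the called gene nearest to *Bap1*.

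**Figure D4:**
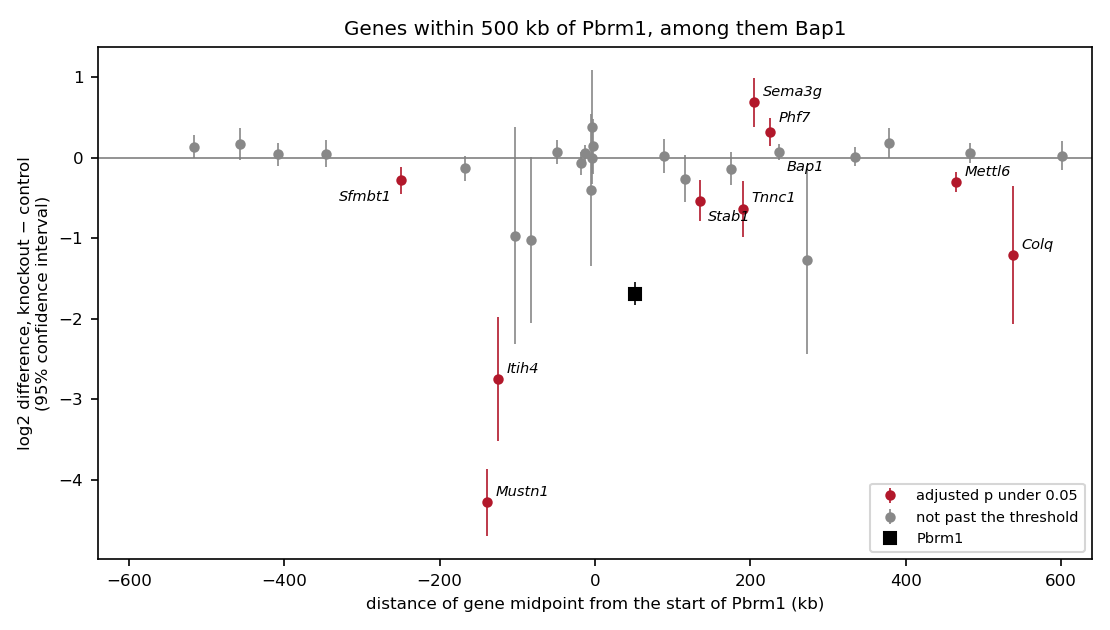
Log2 difference between knockout and control tumors, with 95% confidence intervals, of the 32 genes within 500 kb of *Pbrm1* (square), against the distance of each gene's midpoint from the start of *Pbrm1* in kb. Red points have an adjusted p under 0.05. *Mustn1* and *Itih4* lie far below the rest at -4.28 and -2.75, and *Bap1* lies at 0.07.

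*Kdm5c* (chrX:152233020-152274535, plus strand), an eraser of H3K4 methylation, had 5114.4, 5538.2, 4659.8, 4102.2 and 4376.3 normalized counts in control, 5465.8, 5654.2, 5649.8, 4668.3 and 5210 in clone 4, and 4240.2, 5243.9, 4919.1, 5160.1 and 4998.7 in clone 18. The groups overlapped, although 2 clone 4 tumors exceeded every control tumor. The log2 difference was 0.11 ± 0.08 (SE, interval -0.05 to 0.27, adjusted p from limma 0.336).

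*Kdm6a* (chrX:18162575-18279936, plus strand), an eraser of H3K27 methylation, had the largest negative difference after *Nf2*. Its counts were 1731.5, 1800.3, 1863, 1638.2 and 1798.5 in control, 1639.3, 1634, 1757.6, 1617.9 and 1777.9 in clone 4, and 1582.8, 1551.5, 1353.5, 1762.1 and 1603.2 in clone 18. Of the knockout tumors 6 of 10 lay below every control tumor, 4 of them in clone 18. The log2 difference was -0.12 ± 0.06 (SE, interval -0.25 to 0.01, adjusted p from limma 0.184), with p = 0.0493 in the exact permutation test and no adjustment for the 9 genes tested in this way. In clone 18 it was -0.17 ± 0.07 (SE, adjusted p from limma 0.0708), and without clone 18 tumor 14 it was -0.22 with an adjusted p of 0.0276 in limma.

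*Kdm5c* and *Kdm6a* lie on the X chromosome and are known to escape its inactivation, with the Y-linked counterparts *Kdm5d* and *Uty*. *Xist*, the RNA of the inactive X, was present in every tumor, at 1222.5 to 2405.7 in control and 1004.2 to 3617 in the knockout tumors, and did not pass (log2 difference -0.43 ± 0.24, adjusted p from limma 0.229). *Kdm5d* (9.6 to 37.5) and *Uty* (2 to 23.6) rested on 10 to 33 and 2 to 19 reads per tumor, and reads shared with their X-linked relatives cannot be told apart at this level. *Ddx3x*, another X-linked gene of this kind, fell by 0.29 on the log2 scale (SE 0.08, adjusted p from limma 0.0107). It was 1 of 5 measured sex chromosome genes called, beside 22.1% of all genes. Without clone 4 tumor 10, *Xist* passed as well (log2 difference -0.57, adjusted p from limma 0.0196).

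Of the 13 other measured genes of the KDM5 and KDM6 families and the KMT2C/D complex, in which KDM6A works, 2 rose, 1 fell and 10 did not pass. The list had a median of -0.04, and 22.1% of all genes were called. *Dpy30*, a core subunit, rose by 0.27 ± 0.07 (SE, adjusted p from limma 0.011). *Paxip1*, which encodes the subunit PTIP, rose by 0.19 ± 0.06 (SE, adjusted p from limma 0.0302), lost under 4 of 25 alternatives. *Kdm5b*, a close relative of *Kdm5c*, gave -0.31 ± 0.10 (SE, adjusted p from limma 0.0392), a call lost under 13 of 25 alternatives. Without control tumor 1 or 5, *Dpy30* alone was called, 1 gene in place of 3.

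*Tsc1* (chr2:28641228-28691167, plus strand) and *Tsc2* (chr17:24595816-24632630, minus strand) encode the complex that switches off the GTPase RHEB, the activator of the kinase encoded by *Mtor* (chr4:148448611-148557683, plus strand). *Tsc1* ranged from 2851.5 to 3733.4 in control, 2568.8 to 3291.2 in clone 4 and 3196.6 to 3479.2 in clone 18. *Tsc2* ranged from 1346.7 to 1753.5, 1475.7 to 1720 and 1462.4 to 1811.4, and *Mtor* from 3832.6 to 5207, 3676.2 to 5209.8 and 4260.6 to 5654.3 in the same groups. All these ranges overlapped.

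The log2 differences between knockout and control were -0.02 ± 0.08 for *Tsc1*, 0.03 ± 0.07 for *Tsc2* and 0.01 ± 0.10 for *Mtor* (SE, adjusted p from limma 0.917, 0.789 and 0.952). Their intervals of -0.18 to 0.15, -0.12 to 0.19 and -0.19 to 0.21 leave room for differences of about that size. Between the clones, *Tsc1* was higher in clone 18 by 0.18 ± 0.08 (SE, unadjusted p from limma 0.0439, adjusted 0.254) and *Mtor* by 0.18 ± 0.10 (SE, adjusted p from limma 0.385), neither past the threshold. *Tsc2* overlaps *Pkd1* on the other strand, and *Mtor* overlaps *Angptl7* on the other strand and *Gm24002* and *Gm23318* on its own.

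Of the 10 other genes of the TSC and mTOR complexes, 2 fell, 0 rose and 8 did not pass. The list had a median of 0.03, and 22.1% of all genes were called. *Deptor*, an inhibitor bound to mTOR, had 500.1 to 1752.7 in control, 324.3 to 473 in clone 4 and 292.2 to 501.3 in clone 18. Only tumor 13 of clone 18 reached the lowest control value, and the log2 difference was -1.10 ± 0.23 (SE, adjusted p from limma 0.00235). *Tbc1d7*, a further, small subunit of the TSC complex, was at 54.9 to 70.8 in control and 22 to 68 in the knockout tumors, a difference of -0.72 ± 0.23 (SE, adjusted p from limma 0.0327) that was lost under 5 of 25 alternatives, each without 1 tumor (control tumors 1, 2, 3 or 5 or clone 18 tumor 11), which left 1 called gene. The mTOR partners *Rptor* (0.08 ± 0.09), *Mlst8* (0.10 ± 0.06) and *Rictor* (0.11 ± 0.06, log2 differences with SE) did not pass.

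Of 22 genes of the amino acid branch upstream of mTORC1 and of its effectors, 1 rose, 2 fell and 19 did not pass. Their median was -0.02, and 22.1% of all genes were called. *Nprl2*, a subunit of the GATOR1 complex that holds mTORC1 back when amino acids are scarce, had 635.9 to 813.5 in control, 855.5 to 1005.8 in clone 4 and 904.1 to 1102.7 in clone 18. Every knockout tumor exceeded every control tumor, as in 3.11% of all genes, with a log2 difference of 0.41 ± 0.07 (SE, adjusted p from limma 0.000514). *Ulk1*, the kinase that starts autophagy and is inhibited by mTORC1, fell by 0.39 (SE 0.10, adjusted p from limma 0.0113). *Rps6kb2*, an S6 kinase gene, gave -0.21 ± 0.07 (SE, adjusted p from limma 0.0445), a call lost under 14 of 25 alternatives. The count of 3 in this list rose to 5 without control tumor 4 and to 6 without clone 18 tumor 13, where *Eif4ebp2*, a translation repressor gene, was among the genes gained in both.

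Of 20 further genes of renal cancer, 2 rose, 1 fell and 17 did not pass, with a median of -0.02. *Met*, the receptor of hepatocyte growth factor that is mutated in papillary renal carcinoma, had 2810.5 to 3198.4 normalized counts in control, 5464 to 6660.4 in clone 4 and 3937.4 to 6215.6 in clone 18. Every knockout tumor lay above every control tumor, as in 3.11% of all genes, while the clones overlapped. The log2 difference of *Met* between knockout and control was 0.89 ± 0.09 (SE, adjusted p from limma 3.55e-06). *Atm*, a DNA damage kinase gene, rose by 0.26 ± 0.08 (SE, adjusted p from limma 0.024), lost under 2 of 25 alternatives, and *Cul3*, a ubiquitin ligase scaffold, fell by 0.23 (SE 0.06, adjusted p from limma 0.0101). Over the 127 genes of all lists that are not among the 9, 25 were called (19.7%, beside 22.1% of all genes), 11 higher and 14 lower.

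To order the 9 genes by level, normalized counts were divided by the length of the merged exons of each gene. The mean per kb over 15 tumors was 1335 for *Vhl*, 1215 for *Bap1*, 1012 for *Nf2*, 703 for *Kdm5c*, 443 for *Mtor*, 421 for *Setd2*, 267 for *Tsc1*, 199.7 for *Kdm6a* and 167 for *Tsc2*. *Pbrm1* stood at 1019 per kb in control and 316 in the knockout tumors. Of neighbours in this order, the ranges over tumors were apart for *Nf2* above *Kdm5c*, *Kdm5c* above *Mtor* and *Setd2* above *Tsc1*. They overlapped for *Vhl* and *Bap1*, *Bap1* and *Nf2*, *Mtor* and *Setd2*, *Tsc1* and *Kdm6a*, and *Kdm6a* and *Tsc2*, although *Tsc1* exceeded *Kdm6a* within each of the 15 tumors. *Tsc2*, the subunit with the enzymatic activity, had the lowest level of the 9.

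Within groups, *Setd2* and *Kdm5c* varied together from tumor to tumor. With each group's mean taken out of the log2 values, Pearson's r over 15 tumors was 0.933 and Spearman's rho 0.889 (permutation p = 1e-05, the smallest that 100000 permutations can give, and 4e-05). After Benjamini-Hochberg adjustment over the 36 pairs of the 9 genes, these became 0.00036 and 0.00144. Without tumors 2 and 4, the ones farthest from the median of *Setd2*, r was 0.895. It was the 1 pair of 36 that passed, and *Bap1* with *Tsc2* came next, with r = 0.765 and an adjusted permutation p of 0.0603.

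The tumors also differed in the level of long against short transcripts. Genes averaging 100 or more normalized counts were used, 3819 with at least 6 kb of exons and 1800 with at most 2 kb. The median centred log2 value of long genes minus that of short ones ran from -0.23 in tumor 13 to 0.14 in tumor 2. Within groups it correlated with *Setd2* (r = 0.802, rho = 0.818), *Mtor* (r = 0.718, rho = 0.764) and *Kdm5c* (r = 0.714, rho = 0.782), with permutation p adjusted over the 9 genes of 0.00576, 0.0217 and 0.0217 for r and 0.00504, 0.00873 and 0.00639 for rho. Without tumors 4 and 13 the r values were 0.857, 0.855 and 0.82. These genes have 10.754, 10.109 and 7.11 kb of exons. *Tsc1*, the longest of the 9 with 11.833 kb, gave r = 0.299 and rho = 0.346, and *Tsc2* with 9.62 kb gave r = 0.166 and rho = 0.118 (adjusted permutation p = 0.384 and 0.287, and 0.682 and 0.77). For *Nf2* it was r = 0.427 and rho = 0.454 (adjusted permutation p = 0.217 and 0.216). The part of transcript length in the *Setd2* and *Kdm5c* relation was not tested.

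**Figure D5:**
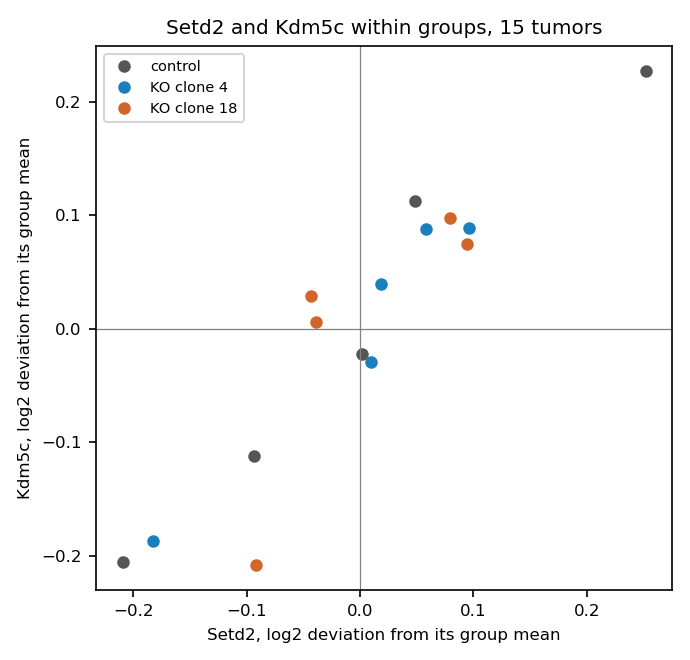
Log2 deviation of *Kdm5c* from its group mean (vertical axis) against that of *Setd2* (horizontal axis), 1 point per tumor, with the 5 tumors of each group in 1 colour. The points of all 3 groups rise along 1 line (r = 0.933), and control tumors 2 and 4 lie farthest from the median of *Setd2*.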

How the data were processed

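RNA of 15 tumors was sequenced, 5 per group. The deposited signal is a normalized count that the authors made with DESeq from HTSeq gene counts of TopHat2 alignments (mm10), given to 0.1. Versions, annotation, strand setting and gene filter are not given in the sources used here. The 9 genes, the 11 lists of related genes and the markers were chosen with earlier results of these data known. Values were used as log2(normalized count + 1). Of 18279 genes, 29 were at 0 in every tumor and 18250 were tested with limma 3.58.1 with trend, 10 knockout against 5 control tumors, and the 3 groups in a second fit, with Benjamini-Hochberg adjustment over all genes at 0.05. Intervals are at 95%.

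Whole multiples of 1 step per tumor, within a tolerance of 0.05, made up at least 99.8% of values below 8000, so whole reads were recovered. On these, edgeR 4.0.16 called 4105 and DESeq2 1.42.0 called 4615 genes between knockout and control, against 4040 with limma. Read totals were 32924414 to 49099168 per tumor, and counting error was small beside the spread between tumors (chi-square per degree of freedom 18.6 to 172.2 over 30 pairs within groups). Nothing in the labels ties tumors to a batch or says more of how replicates differ than that they are separate tumors. In counts simulated for 18244 genes with 200 changed between knockout and control, limma recovered 100% of the changed ones, and 4.76% of its calls were false, beside 5.21% for edgeR and 11.5% for DESeq2.

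Named genes were the 9, *Pbrm1*, from each list up to 4 called genes with the smallest p and a mean of at least 10, the other subunits of each complex, called genes within 500 kb of *Pbrm1*, the 2 genes most like *Nf2*, and *Xist*, *Kdm5d* and *Uty*. Gene positions and exon lengths came from GENCODE M21 (GRCm38), matched by symbol for 18009 genes, and promoters from RefSeq. Alternatives were other pseudocounts (0.1 and 5), a mean of at least 10, 2 other scalings, limma without trend, edgeR, DESeq2 and leaving out each tumor. For the neighbours of *Pbrm1*, a window of 1000 kb was a further one. R 4.3.3 and Python 3.11.15 were used. *Hif3a*, *Asxl3* and *Pagr1a* were not analysed here, and 1 of the markers is not reported here.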

Additional observations from a re-analysis of the deposited data

Results flagged for a closer look

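Within a group of 5 tumors, the highest or lowest value of a named gene stood far from the rest in 13 of 156 groups tested, of which 2 of 27 were groups of the 9 renal cancer genes. Chance alone gives about 1 in 20. Both concerned *Nf2*. Control tumor 2 had 8399.7 normalized counts, where the other control tumors had 7662.9 to 7822.8, and clone 4 tumor 7 had 7486, where the others of clone 4 had 5498.5 to 6070.4. Both values are the high end of their group, and both groups remain apart with them.

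Clone 18 tumor 13 stood apart in 4 genes, with *Ankrd37* at 900.6 (others 1223.9 to 1354.2), *Deptor* at 501.3 (292.2 to 329.8), *Elob*, listed as *Tceb2*, at 7569.8 (5331.1 to 5896.4) and *Sema3g* at 587.7 (686.6 to 705). Clone 18 tumor 12 was low in *Rps6kb2* at 604.1 (710.3 to 750.1), and control tumor 2 was high in *Cul3* at 5724 (4931.4 to 5157.6). *Xist* was low in control tumor 4 at 1222.5 (2080.3 to 2405.7) and high in clone 4 tumor 10 at 3617 (1150.3 to 1468.7), where *Uty* was also high at 21.2 (4 to 8.6). Among the neighbours of *Pbrm1*, control tumor 1 was high in *Stab1* at 16779 (12142 to 13442.4) and control tumor 4 in *Colq* at 66.1 (21.3 to 33.5).

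By the limma test of clone 18 against clone 4, 5 of the 127 genes of the lists differed (3.94%, beside 4.62% of all genes). Of these, 1 was higher and 4 were lower in clone 18. The log2 differences were 0.763 for *Rragb*, a GTPase gene of the amino acid branch, -0.431 for *Tead4*, -0.382 for *Crim1*, -1.2 for *Tgfb2* and -1.07 for *Mitf*, a transcription factor gene of the family that drives translocation renal carcinoma. *Tgfb2* had 657.6 to 1103.1 normalized counts in clone 4 and 344.8 to 395.9 in clone 18, and *Mitf* had 872.4 to 1198.6 and 450 to 643.5. In the control tumors *Mitf* ranged from 833.7 to 988.8. The call for *Rragb* was lost under 11 of 25 alternatives and that for *Crim1* under 1 of 25.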

How the results depend on the processing

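*Nf2* was lower and past the threshold between knockout and control under all 25 alternatives, with adjusted p from 0.00163 to 0.0186 and log2 differences from -0.33 to -0.26. The same held in clone 4 (0.000641 to 0.0243). The count of called genes among the 9 was 1 for knockout and 1 for clone 4 in the main analysis. For clone 18 against control it was 0, in place of 1, with quantile normalization, with edgeR and without tumors 1, 10 and 13. That last setting and a covariate for the long-to-short transcript difference were added after the data were seen. Tumor 1 had the highest macrophage and T cell marker sums of the control tumors, and tumors 10 and 13 the lowest median correlation with their own groups (0.979 and 0.978). Leaving out 1 tumor at a time gave 1 to 2 called genes for knockout (2 without control tumor 4, when *Vhl* passed) and 0 to 2 for clone 18 (0 without control tumor 2 or clone 18 tumors 12 or 13, when *Nf2* was lost, and 2 without clone 18 tumor 14, when *Kdm6a* passed). Counts over all genes (3219 to 4615), all lists together (19 to 28) and the neighbours of *Pbrm1* (7 to 13) stayed within 1.5 times the main count. For the neighbours this range took in a wider window of 1000 kb, where 13 of 40 genes were called, beside 9 of 32 within 500 kb. Leaving out 1 tumor gave 7 to 10. Single lists moved further, from 2 to between 0 and 3 for the VHL ligase list, 3 to between 1 and 4 for the KDM5 and KDM6 list, 3 to between 2 and 6 for the amino acid branch, 2 to between 1 and 3 for the TSC and mTOR complexes, and 1 to 2 for the Hippo, H3K36 and sex chromosome lists. The median over all genes moved by under 0.1 with any scaling.

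Directions turned in 52 of 2174 single-gene results, all of them uncalled. With upper quartile scaling, *Setd2* gave 0.00026 and *Tsc1* 0.0137 for knockout, *Setd2* 0.0188 for clone 18, *Vhl* 0.0139 between clones and *Eloc* (*Tceb1*) 0.0154. With quantile normalization these were 0.0035, 0.0113, 0.0223, 0.0102 and 0.0144. With edgeR, *Tsc1* gave 0.0016 and *Eloc* 0.0083. With the covariate, *Setd2* in clone 18 gave 0.0130. Without tumors 1, 10 and 13, *Vhl* gave 0.112 and *Tsc2* -0.0043 between clones. Leaving out 1 tumor, the ranges for knockout were -0.0818 to 0.0336 for *Setd2*, -0.0535 to 0.0437 for *Tsc1*, -0.0212 to 0.0740 for *Tsc2*, -0.0403 to 0.0702 for *Mtor*, -0.0436 to 0.0165 for *Eloc*, -0.00048 to 0.120 for *Rptor* and -0.401 to 0.0013 for *Uty*. For clone 4 they were -0.0888 to 0.0267 for *Setd2* and -0.0232 to 0.0719 for *Tsc2*. For clone 18 they were -0.0748 to 0.0406 for *Setd2*, -0.0011 to 0.107 for *Kdm5c* and -0.0191 to 0.0761 for *Tsc2*. Between clones they were -0.0932 to 0.0581 for *Vhl*, -0.0317 to 0.0381 for *Setd2* and -0.0378 to 0.0393 for *Tsc2*. The cause was not tested. No paired analysis was possible because the replicate numbers were given in accession order and link no tumors across groups.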
